A study of Mus musculus with 17 samples.

Results

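Interferon-stimulated effector genes encode the proteins that a cell makes once interferon has bound its receptors, and 47 of them were followed here through every library of a study of mouse lacrimal gland and its organoids. They were taken by symbol from a written list, matched to gene identifiers, and make up 47 of the 57638 gene IDs present in either of the study's count tables. The list was chosen with earlier results of these data known. Counts of members called, set below against shares of all tested genes, are therefore a description and not an independent test. All 47 passed the filter on low counts in both tables and none was at 0 in any library. Polyadenylated RNA was sequenced from the lacrimal gland, which secretes the watery part of tears, and from organoids, which are its epithelial cells cultured in a gel of basement membrane proteins. The 17 libraries fall into 7 groups. One table holds 3 wild-type gland samples and uncloned wild-type organoids of the same 3 numbered lines (6, 7 and 8), with 3 libraries in expansion medium (EM) and 3 in differentiation medium (DM). The other holds 4 clones, 2 of them wild type (WT) and 2 carrying the label Pax6 knockout (KO-labelled below), each grown once in EM and once in DM. EM cultures were kept in EM for 7 days, and DM cultures had 2 days of EM followed by 5 days of DM according to the growth protocol. For the clones the series text gives 7 days of each medium instead, so their time in DM is uncertain. The sources used here do not give mouse strain, age or sex, the composition of the media or the way Pax6 was targeted. Each genotype label rests on 2 clones, and nothing states that the 3 lines came from separate animals. The p-values therefore measure the spread between these samples, which may be partly technical.

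Type I and type III interferons act through the kinases Jak1 and Tyk2 on transcription factors, Stat2 and Irf9 among them, that bind the interferon-stimulated response element. Type II interferon acts through the gamma-activated site. The genes they switch on include sensors that amplify the response, enzymes that degrade or modify RNA, GTPases that attack viruses and the vacuoles of microbes, and membrane proteins that block viral entry or release. Epithelia facing the outside, to which the ducts of the lacrimal gland belong, carry the receptors for these cytokines and can express the whole set themselves.

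Total counts ran from 12801473 to 19207469 per library in the first table and from 18282059 to 22500534 in the table of clones. The 2 tables were counted over different sets of gene IDs and normalised separately, so levels are compared within a table only. Levels are CPM, a gene's counts as a proportion of the library's total after edgeR's TMM scaling of library sizes. Pax6, the gene named in the KO label, stood at 245 and 276 CPM in WT clones 1 and 2 in EM, 219 and 279.7 in WT in DM, 172 and 272 in KO-labelled clones in EM and 135 and 309 in KO-labelled clones in DM. Its transcript was not called different between labels in either medium (edgeR adjusted p = 0.744 in EM and 0.831 in DM), so the label could not be checked on the RNA. Summed epithelial markers were at 1205 to 1226 CPM in the gland and at 5450.5 to 10911 CPM in the uncloned organoids of the same table, while 5 markers of lacrimal acinar cells summed to 11419 to 12134 CPM in the gland and to 155 to 334 CPM in those organoids.

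Upstream sequences are shown for 6 members because they hold, in letters, the elements through which the pathway is known to act. RefSeq promoter windows (build GRCm38.p6, 250 bases before to 50 bases after the start) were matched for 37 members. There was none for Iigp1, Parp9, Oas2, Zbp1, Ifi27, Rtp4, Mx2, Mx1, Parp14 and Usp18. Capitals mark the core of the interferon-stimulated response element, searched on both strands as GAAA, then 2 free bases, then GAAA, and the gamma-activated site TTCNNNGAA, which reads the same on both strands. Copies may overlap. Each line gives the 140 bases before the start, 5′ to 3′ on the strand of the gene, at chr4:156200819-156200958 for Isg15 (minus strand), chr19:34640749-34640888 for Ifit1 (plus), chr5:120907526-120907665 for Oas1a (minus), chr5:120887614-120887753 for Oas1g (minus), chr11:58214837-58214976 for Irgm2 (plus) and chr11:58199416-58199555 for Igtp (plus).
Isg15: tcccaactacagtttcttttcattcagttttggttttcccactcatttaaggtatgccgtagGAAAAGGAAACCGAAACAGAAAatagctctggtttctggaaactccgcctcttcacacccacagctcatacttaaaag
Ifit1: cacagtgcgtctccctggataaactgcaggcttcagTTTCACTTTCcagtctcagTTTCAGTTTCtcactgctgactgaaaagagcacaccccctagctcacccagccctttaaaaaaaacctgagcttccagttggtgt
Oas1a: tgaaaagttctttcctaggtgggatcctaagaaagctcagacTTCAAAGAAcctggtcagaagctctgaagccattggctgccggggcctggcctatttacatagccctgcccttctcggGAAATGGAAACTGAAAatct
Oas1g: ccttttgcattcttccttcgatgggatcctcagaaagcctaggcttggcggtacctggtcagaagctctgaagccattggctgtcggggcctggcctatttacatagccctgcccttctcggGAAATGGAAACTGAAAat
Irgm2: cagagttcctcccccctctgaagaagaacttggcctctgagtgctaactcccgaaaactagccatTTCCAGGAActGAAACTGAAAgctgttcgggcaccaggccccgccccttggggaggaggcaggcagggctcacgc
Igtp: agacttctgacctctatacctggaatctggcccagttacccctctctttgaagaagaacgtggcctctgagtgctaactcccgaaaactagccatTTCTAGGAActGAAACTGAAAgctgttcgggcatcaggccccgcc
Isg15, the ubiquitin-like modifier, carries 3 overlapping copies of the core, which begin 78, 72 and 66 bases before the start. Ifit1, which binds foreign RNA ends, has 2 separate copies on the opposite strand, beginning 104 and 85 bases before the start. The pair Oas1a and Oas1g, both 2-5A synthetases, keeps the same overlapping 2-copy element within 20 bases of the start, and their upstream stretches are 85.5% identical over 138 bases once one is shifted by 2. Only Oas1a of that pair also holds a gamma-activated site in its window, 98 bases before the start. Irgm2 and Igtp, neighbouring immunity-related GTPases, each have a gamma-activated site (75 and 45 bases before the start) and, 2 bases after it, the response element core (64 and 34 bases before), and their upstream stretches are 90.9% identical over 110 bases at a shift of 30.

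The response element core was found in the windows of 18 of the 37 members (48.6%), against 3.44% of 32851 promoter windows and 3.99% of 27025 genes. The gamma-activated site was found in 10 of 37 (27.0%), against 8.3% of windows and 9.55% of genes. By role, the core was in 6 of 6 guanylate-binding proteins and immunity-related GTPases with a window, in 3 of 4 Ifit genes, in 3 of 5 Oas genes and in 2 of 2 membrane factors. It was in 1 of 7 of the group of nucleic acid binding proteins and helicases, in which Rnf213 and Samd9l were also placed. It was in 0 of 2 of the group of Parp12 and Dtx3l. These letter matches are a description. A window without a match says only that these letters were not in it.

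The members' share of all counts, which is not TMM-scaled, differed widely between groups. They took 0.0343% to 0.0473% of counts in the gland, 0.950% to 1.03% in uncloned EM and 0.696% to 1.19% in uncloned DM. With TMM scaling these groups lay closer, at sums of 884 to 1218 CPM in the gland, 5755 to 6351 in uncloned EM and 4481 to 7629 in uncloned DM. In the clones they took 0.633% and 0.385% in WT EM, 1.30% and 1.20% in WT DM, 1.94% and 1.87% in KO-labelled EM and 1.96% and 2.21% in KO-labelled DM. The gland libraries were thus the lowest of their table and the 2 WT EM libraries the lowest of theirs. Per kilobase of exon, which allows genes to be compared, Ifitm3, a blocker of virus entry from endosomes, had the highest mean level of the 47 in all 6 organoid groups, from 1202 CPM per kb in WT EM to 3568 in KO-labelled DM. In the gland it was second at 69.4 CPM per kb, and Ifi27, a small membrane protein of mitochondria and the nuclear envelope, was first at 180.3. After Ifitm3, in uncloned organoids Bst2 (tetherin, which holds budding virions at the cell surface) came next, at 209 in EM and 178 in DM, followed by Isg15 at 176 and 171. In both KO-labelled groups and in WT DM, Ifit3 was second. At the other end was Herc6, the ligase that attaches Isg15 in mice, the lowest of the 47 per kb in all 6 organoid groups, between 0.663 and 4.48 CPM per kb.

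**Figure D1:**
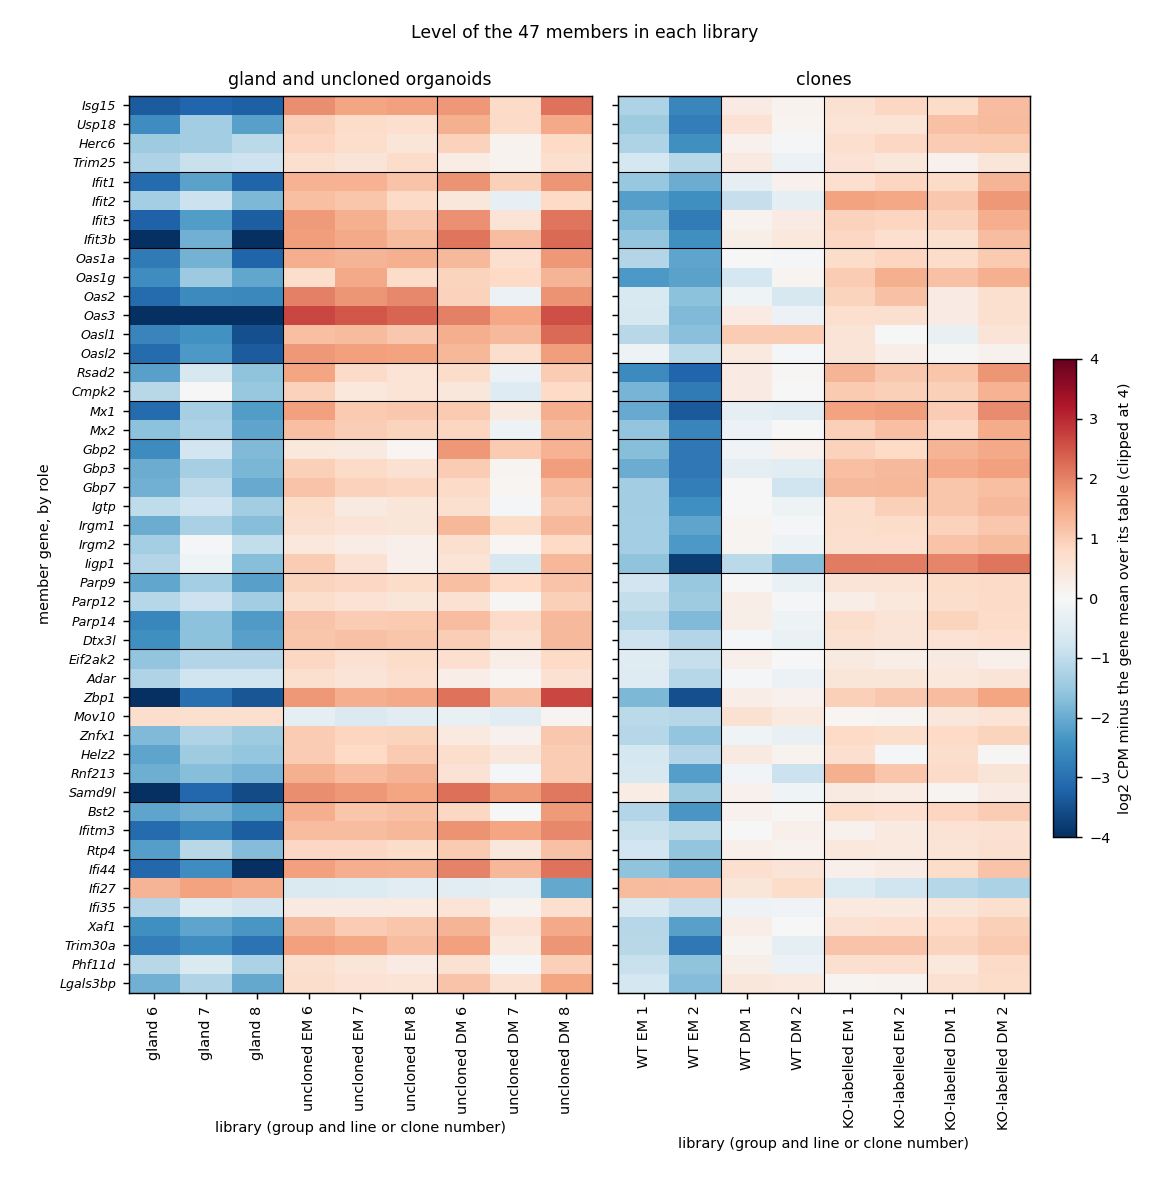
Heat map of the 47 members (rows, grouped by role with black lines) in each library (columns, by group and line or clone number). Colour is log2 CPM minus the gene's mean over its own table, clipped at 4. Gland columns lie below the organoid columns of their table except for Mov10 and Ifi27, which run the other way, and for Cmpk2 and Iigp1, whose DM level in line 7 is below that of gland 7.

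Uncloned organoids held much higher levels of nearly all members than the gland. In EM 45 of 47 rose and 2 fell by edgeR's quasi-likelihood test (Benjamini-Hochberg adjusted p under 0.05 over all 13713 genes tested), against 37.4% of all tested genes called higher and 37.4% called lower. In DM the counts were again 45 and 2, against 38.1% of tested genes higher and 37.4% lower. The median log2 fold change of the members was 2.67 in EM and 2.86 in DM, where that of all tested genes was 0.01 and 0.02. Both comparisons use the same 3 gland libraries, so they are not independent of each other. In bulk tissue, fewer cells of a type and less RNA per cell cannot be told apart.

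The Oas and Ifit families had the highest median log2 fold changes of all roles, 4.27 and 4.18 in EM and 4.01 and 4.42 in DM. Oas enzymes make 2-5A, the second messenger of RNase L. All 6 genes of the family, among them the Oas-like Oasl1 and Oasl2, rose in both media. Oas3 read 1.60, 1.09 and 1.29 CPM in glands 6, 7 and 8, 194, 171 and 153 in uncloned EM and 124, 89.04 and 181 in uncloned DM of the same lines. Every organoid library was thus far above every gland library, with a log2 fold change of 7.02 ± 0.34 in EM (± SE, as for each fold change below; edgeR adjusted p = 9.11e-09) and 6.63 ± 0.34 in DM. Oas2 read 4.62, 6.74 and 6.56 CPM in the gland, 158, 133 and 149.7 in EM and 74.5, 33.3 and 135 in DM (log2 fold change 4.61 ± 0.48, adjusted p = 4.48e-06 in EM). Oasl2, an Oas-like protein and per kilobase the most abundant of the family in this table, went from 19.4, 33.2 and 16.1 CPM in the gland to 543, 504 and 496 in EM (log2 fold change 4.51 ± 0.29, adjusted p = 9.83e-08).

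All 4 genes of the Isg15 system rose in both media. Isg15 stood at 4.08, 4.56 and 4.24 CPM in the gland, 148, 121 and 129 in EM and 135, 69.2 and 184 in DM (log2 fold change 4.95 ± 0.37, adjusted p = 2.80e-07 in EM). Usp18, which removes Isg15 from proteins and dampens the receptor, rose by 2.76 ± 0.26 in EM, Herc6 by 1.97 ± 0.26 and Trim25, a ligase that acts on the RNA sensor RIG-I, by 1.62 ± 0.14. All 4 Ifit genes rose as well. Ifit3 read 7.63, 15.1 and 7.33 CPM in the gland, 234, 194 and 152 in EM and 256, 106 and 319 in DM (log2 fold change 4.53 ± 0.43, adjusted p = 2.21e-06 in DM), and its near copy Ifit3b went from 1.42, 6.20 and 1.29 to 103, 54.8 and 112 CPM in DM (log2 fold change 5.00 ± 0.44, adjusted p = 1.07e-06). The gland libraries were the lowest for all 4.

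The GTPases rose by smaller medians than the Oas and Ifit families. The transcripts of the 2 Mx genes, whose proteins block viral nucleocapsids, rose by 3.34 ± 0.39 (Mx1) and 2.70 ± 0.40 (Mx2) in EM. GENCODE lists Mx2 as a polymorphic pseudogene, whose protein some strains lack, and the labels used here name no strain. Mx1 was at 1.42, 4.74 and 2.57 CPM in the gland, 37.6, 24.7 and 25.3 in EM and 24.8, 15.4 and 32.7 in DM. The 7 guanylate-binding proteins and immunity-related GTPases, which gather on vacuoles of microbes inside the cell, all rose in both media with medians of 1.82 in EM and 2.38 in DM. Among them Iigp1 read 4.26, 8.57 and 2.96 CPM in the gland and 14.2, 6.23 and 24.2 in DM, and these groups overlapped. Viperin (Rsad2), which makes a chain-terminating nucleotide, and its genomic neighbour Cmpk2, which supplies nucleotides for that reaction, rose with a median of 1.90 in EM. Rsad2 read 3.37, 9.84 and 5.01 CPM in the gland and 45.4, 25.99 and 22.1 in EM (log2 fold change 2.38 ± 0.44, adjusted p = 0.000453), while the gland libraries of Cmpk2, at 5.50, 11.7 and 4.11 CPM, overlapped those in DM, at 16.2, 8.23 and 20.4 CPM. Without gland 6, gland 8 or the DM library of line 8, Cmpk2 and Iigp1 were no longer called in DM.

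The group of nucleic acid binding proteins and helicases, with Rnf213 and Samd9l placed in it, behaved unevenly. Of 8, 7 rose and 1 fell in each medium. Samd9l, an inhibitor of translation, read 3.73, 9.30 and 6.94 CPM in the gland, 300.0, 278 and 246 in EM and 379, 271 and 356 in DM (log2 fold change 5.36 ± 0.24, adjusted p = 4.22e-09 in EM), and Zbp1, the sensor of Z-form nucleic acids that can start necroptosis, read 1.24, 3.10 and 2.31, 83.3, 68.1 and 71.9 and 113, 56.5 and 159 (log2 fold change 5.06 ± 0.44, adjusted p = 1.13e-06 in EM). Both were higher in every organoid library than in every gland library. Eif2ak2 (the kinase PKR) and Adar (which edits double-stranded RNA) rose by 2.01 ± 0.15 and 1.52 ± 0.15 in EM. The 3 membrane factors rose, with Ifitm3 at 44.6, 57.8 and 38.8 CPM in the gland, 901, 891 and 953 in EM and 1312, 1136 and 1447 in DM (log2 fold change 4.29 ± 0.16, adjusted p = 1.11e-09 in EM). All 4 of Parp9, Parp12, Parp14 and Dtx3l rose, the first and last of which form a ligase complex, with Parp9 at 17.05, 28.1 and 15.9 CPM in the gland and 134, 129 and 121 in EM (log2 fold change 2.67 ± 0.19, adjusted p = 1.81e-07). Ifi44, a GTP-binding protein, went from 6.39, 10.03 and 2.70 CPM in the gland to 172, 152 and 150.0 in EM and 222, 139 and 251 in DM (log2 fold change 4.70 ± 0.34, adjusted p = 2.16e-07 in EM).

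Mov10 and Ifi27 were the 2 of the 47 that fell. Mov10, an RNA helicase of the RNA-silencing machinery, read 65.2, 62.3 and 61.2 CPM in the gland, 29.97, 26.8 and 28.8 in EM and 32.5, 29.7 and 43.2 in DM (log2 fold change -1.14 ± 0.13, adjusted p = 1.00e-05 in EM and -0.84 ± 0.13 in DM). Ifi27 read 244, 286 and 264 CPM in the gland, 62.9, 64.8 and 70.4 in EM and 68.3, 71.9 and 22.9 in DM (log2 fold change -2.00 ± 0.32, adjusted p = 0.000137 in EM and -2.28 ± 0.32 in DM). No gland library overlapped the organoids for either gene. In DM the library of line 8 stood apart with the lowest level of Ifi27. Scaling by total counts instead of TMM raised the median of all genes by 2.06 in EM and 1.97 in DM on the log2 scale. Under it Mov10 rose in both media (0.92 in EM and 1.13 in DM) and Ifi27 was no longer called (0.06 and -0.31), while the members' median became 4.73 in EM, which is as far above the shifted median of all genes as before. The gland holds other cells. Its 17 macrophage and dendritic markers summed to 669.7 to 894.5 CPM, against 22.6 to 59.7 CPM in uncloned organoids, where Adgre1, C1qa, C1qb, C1qc, Fcgr1, Tyrobp, Ptprc and Siglech were at 0 in both media. Of 16 tested, 14 were called lower and 1 higher in organoids of each medium, where 37.4% of all tested genes were called lower. Fibroblast markers summed to 819 to 993 CPM in the gland and at most 31.5 in uncloned organoids. Most of the macrophage sum left in organoids was Cd68 and Itgam. The part of these cells in the result was not tested.

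**Figure D2:**
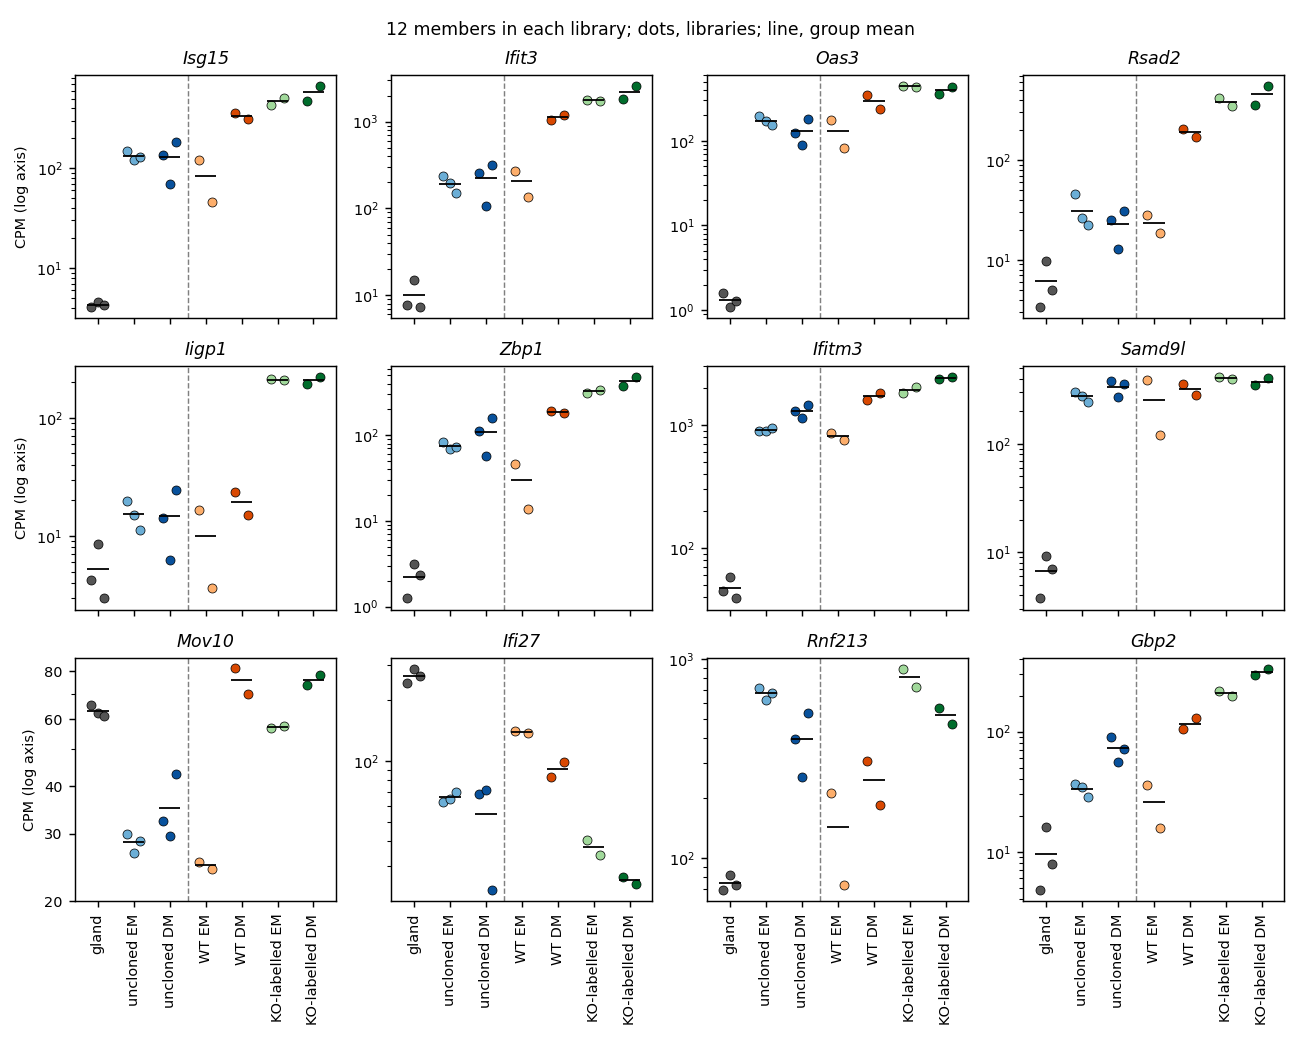
CPM on a log axis for 12 members in each library (dots), with the mean of each group as a line; the dashed line separates the 2 tables, whose levels are not compared. Oas3, Isg15 and Samd9l separate gland from organoids, Mov10 and Ifi27 run the other way, and Iigp1 is above 190 CPM in all 4 KO-labelled libraries and under 25 CPM in all 4 WT libraries.

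In uncloned organoids the change of medium moved few members. In DM against EM 3 rose (17.2% of all tested genes did), 1 fell (13.2% did), and the median log2 fold change was -0.02. Gbp2, which binds vacuole membranes, read 36.6, 34.9 and 28.8 CPM in EM and 90.8, 56.1 and 72.2 in DM of lines 6, 7 and 8 (log2 fold change 1.13 ± 0.25, adjusted p = 0.00674, edgeR). Irgm1, a regulator of the other immunity-related GTPases, read 99.9, 93.9 and 90.03 and 162, 108 and 158 (log2 fold change 0.59 ± 0.16, adjusted p = 0.0181), and Ifitm3 rose by 0.51 ± 0.14 (adjusted p = 0.0168). All 3 were higher in DM in each line. Rnf213, a giant ubiquitin ligase that coats bacteria, read 718, 621 and 677 CPM in EM and 395, 256 and 534 in DM (log2 fold change -0.77 ± 0.21, adjusted p = 0.0161) and was lower in DM in each line.

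The groups did not overlap for 4 members in the higher direction, against 24.2% of all tested genes, and for 1 in the lower direction, against 23.3%. The lines went different ways. The median over the 47 of log2 CPM in DM minus EM was -0.02 in line 6, -0.45 in line 7 and 0.46 in line 8, with 23, 8 and 41 members higher in DM. In DM, line 7 was the lowest of the 3 lines for 46 members and line 8 the highest for 40. Summed macrophage markers were 45.4 to 59.7 CPM in these DM libraries and 22.6 to 43.1 in EM. Of 16 tested, 5 rose (17.2% of all tested genes did) and 1 fell (13.2% did). Summed fibroblast markers were 0.786 to 1.35 CPM in EM and 23.2 to 31.5 in DM, and 5 of 6 epithelial markers rose. The part of these markers in the result was not tested. Without the DM library of line 7, 9 members rose (13.1% of tested genes did), and without the EM library of line 7, 1 rose (12.6%). Without the DM library of line 8, 9 fell (18.4% of tested genes did), and without the EM or the DM library of line 6 none fell (9.03% and 7.39%). With the line as a block, Oas2 fell as well, which made 2 (13.7%).

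In the WT clones most members were higher in DM than in EM. Of 47, 38 rose and 1 fell (edgeR, adjusted over 14282 genes), where 9.61% of all tested genes rose and 6.13% fell, and the members' median log2 fold change was 1.61. With the clone, which is the same in both media, as a block, 45 rose (14.9% of tested genes did) and 1 fell (10.7%). Both Ifit and Isg15 groups rose whole (4 of 4 each), as did viperin and Cmpk2, both Mx genes, the 4 genes of the Parp9 group and the 3 membrane factors. Rsad2 read 27.97 and 18.4 CPM in WT clones 1 and 2 in EM and 207 and 171 in DM (log2 fold change 3.03 ± 0.29, adjusted p = 0.00225), and Cmpk2 16.02 and 8.25 and 73.5 and 57.7 (log2 fold change 2.43 ± 0.31, adjusted p = 0.00492). Ifit3 went from 272 and 137 CPM to 1050.4 and 1208 (log2 fold change 2.46 ± 0.34, adjusted p = 0.00587), Zbp1 from 46.4 and 13.9 to 194 and 180.2 (log2 fold change 2.63 ± 0.49, adjusted p = 0.0146) and Ifi44 from 165 and 129 to 786 and 709 (log2 fold change 2.34 ± 0.19, adjusted p = 0.00151). Each was picked as one of the 6 largest rises called, so its higher level in both DM libraries than in both EM libraries adds nothing to the call.

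Oasl1, an Oas-like protein known to hold back translation of Irf7, went from 72.7 and 49.6 to 321 and 322 CPM (log2 fold change 2.40 ± 0.32, adjusted p = 0.00557). With Oas1a and Oas1g it made up the 3 of 6 Oas genes that rose, while Oas2, Oas3 and Oasl2 passed the test with the clone as a block but not without it, at 0.66, 1.18 and 0.76 on the log2 scale without the block. Of the 7 guanylate-binding proteins and immunity-related GTPases 6 rose and Iigp1 (0.94, adjusted p = 0.311) did not pass without the block. In the group of nucleic acid binding proteins and helicases 5 of 8 rose. Among them Mov10 went from 25.3 and 24.3 to 81.9 and 69.7 CPM (log2 fold change 1.61 ± 0.11, edgeR adjusted p = 0.000943). Adar, Rnf213 and Samd9l were not called without the block. Trim30a, a regulator of signalling from Toll-like receptors, was the remaining member not called without it (1.61, adjusted p = 0.07). With the block Samd9l was the only member called in neither direction. Ifi27 was the one that fell, from 140.5 and 138 CPM in EM to 82.8 and 99.1 in DM (log2 fold change -0.61 ± 0.13, adjusted p = 0.0213).

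The 2 WT clones differed in EM. Clone 2 was lower than clone 1 for 46 of 47 members, by a median of -0.86 on the log2 scale, against -0.19 in DM. The median DM minus EM difference was 1.30 in clone 1 and 2.06 in clone 2, with 45 and 46 members higher in DM. Summed macrophage and dendritic markers were 114 to 168 CPM in WT EM and 154 to 209 in WT DM. Of these, Adgre1, C1qa, C1qb, C1qc, Ptprc and Siglech were at 0 in all 4 libraries. Summed fibroblast markers were 0.357 and 1.78 CPM in EM and 4.30 and 26.6 in DM of clones 1 and 2, and 4 of 6 epithelial markers rose. The part of these markers in the result was not tested. DESeq2 called 42 members higher (12.3% of tested genes), and 45 rose with no filter on low counts (7.51%). A fit on these 4 libraries alone called 16 higher (4.81%) and none lower. Without the DM library of clone 1, 25 members rose (6.01%) and none fell, and when either EM library was left out none fell. Without the EM library of clone 1, 44 rose (3.88%).

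In the KO-labelled clones the same change of medium moved no member past the threshold. With edgeR 0 of 47 were called in either direction, where 4.94% of all tested genes rose and 3.41% fell. At an unadjusted p under 0.05 there were 3, against 24.6% of all tested genes. The median log2 fold change of the members was 0.18. The groups did not overlap for 21 members in the higher and 6 in the lower direction, against 28.6% and 29.5% of all tested genes. Isg15 read 431 and 506 CPM in KO-labelled clones 1 and 2 in EM and 476 and 673 in DM (log2 fold change 0.30 ± 0.40, adjusted p = 0.718), Rsad2 418 and 346 and 357 and 558 (log2 fold change 0.26 ± 0.27, adjusted p = 0.621), and Ifit3 1794 and 1746 and 1812 and 2606 (log2 fold change 0.32 ± 0.32, adjusted p = 0.613). The EM and DM libraries overlapped for Isg15 and Rsad2, and for Ifit3 both DM libraries were above both EM libraries. With the clone as a block, Ifi44, Mov10, Irgm2 and Parp12 rose (9.25% of tested genes did) and Ifi27 and Oas2 fell (7.12% did). DESeq2 called Ifi44 and Mov10 higher (7.94% of tested genes) and Ifi27 lower (5.87%). These names were read off after their values were seen. Without the DM library of WT clone 1 or of WT clone 2, Mov10 rose and Ifi27 fell.

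The difference between the 2 medium effects was tested directly as an interaction, with the effect in KO-labelled clones minus that in WT clones. No gene of the 14282 passed (0% called), among them none of the 47, whose smallest adjusted p was 0.227 (Mov10, edgeR). The value was below 0 for 46 members, against 52.3% of all tested genes, with a median of -1.34. For 41 it was below 0 at an unadjusted p under 0.05, against 4.97% of tested genes. DESeq2 called 25 members lower (1.26% of tested genes). With the clone as a block, which the labels give as the same in both media, edgeR called 9 lower (0.448% of tested genes): Oas1g, Rsad2, Cmpk2, Gbp7, Parp14, Mov10, Helz2, Ifi44 and Phf11d. Rsad2 had the lowest value, -2.77 ± 0.39 without the block. For 45 of 47 members both KO-labelled clones had a smaller DM minus EM difference than both WT clones, with clone medians of 0.02 and 0.25 against 1.30 and 2.06. The share of all tested genes with this pattern was not computed, so the 45 has no background to be read against.

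**Figure D3:**
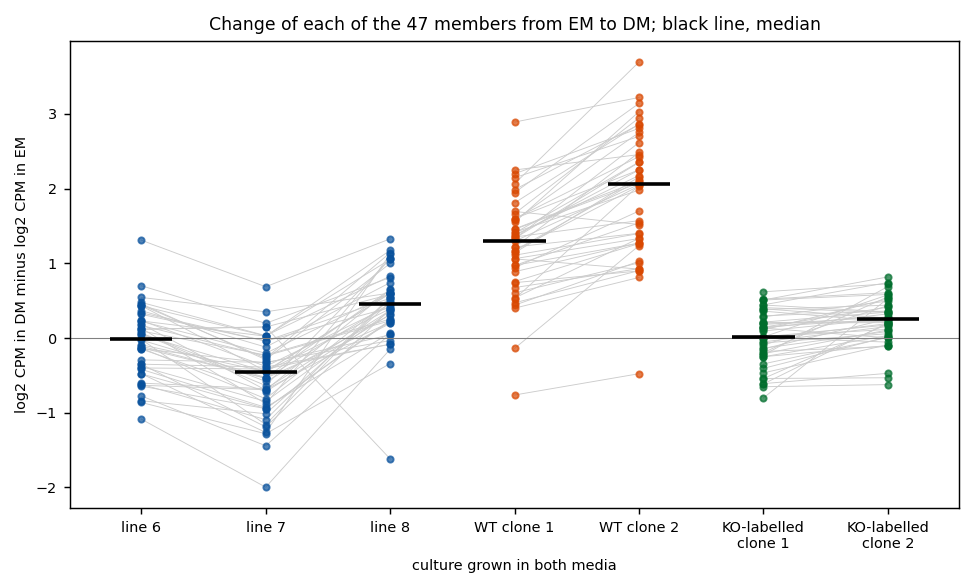
Log2 CPM in DM minus log2 CPM in EM for each of the 47 members (dots, joined by grey lines between the cultures of one kind) in each culture grown in both media; black lines are medians. The medians lie at -0.02, -0.45 and 0.46 in lines 6, 7 and 8, at 1.30 and 2.06 in the WT clones and at 0.02 and 0.25 in the KO-labelled clones.

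In EM the KO-labelled clones held higher levels of nearly the whole set than the WT clones. Of 47 members 43 rose and 1 fell, where 5.38% of all tested genes rose and 4.41% fell, and the median log2 fold change was 2.34. Iigp1, a GTPase that disrupts parasite vacuoles, read 16.5 and 3.66 CPM in the WT clones and 214 and 208 in the KO-labelled clones (log2 fold change 4.38 ± 0.61, adjusted p = 0.0102, edgeR). Mx1 went from 27.6 and 10.9 to 346 and 359 CPM (log2 fold change 4.19 ± 0.47, adjusted p = 0.00625), Rsad2 from 27.97 and 18.4 to 418 and 346 (log2 fold change 4.04 ± 0.31, adjusted p = 0.00273) and Ifit2 from 26.8 and 22.6 to 379 and 358 (log2 fold change 3.90 ± 0.28, adjusted p = 0.00273). Gbp3 read 25.8 and 14.3 and 236 and 252 CPM (log2 fold change 3.60 ± 0.26, adjusted p = 0.00273) and Oas1g 3.61 and 3.99 and 35.9 and 46.8 (log2 fold change 3.44 ± 0.30, adjusted p = 0.00464). All 6 were picked as the largest rises called, so their higher level in both KO-labelled libraries than in both WT libraries adds nothing to the call. These comparisons share the WT EM libraries with the medium comparison of the WT clones.

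By role, all 4 Ifit genes, all 4 of the Isg15 system, both Mx genes, viperin and Cmpk2, all 7 guanylate-binding proteins and immunity-related GTPases, all 4 of the Parp9 group and all 3 membrane factors rose. The medians were 3.02 for the guanylate-binding and immunity-related GTPases and 2.91 for the Ifit genes. They were 1.91 for the Oas genes and 1.27 for the group of nucleic acid binding proteins and helicases. Of the Oas genes 5 of 6 rose, and Oasl2 was at 0.97 (adjusted p = 0.0861). Of the nucleic acid binding proteins and helicases 6 of 8 rose. The other members were Helz2, a helicase that acts as a coactivator, at 1.27 (edgeR adjusted p = 0.0515) and Samd9l at 0.66 (adjusted p = 0.412). Samd9l read 392 and 119.9 CPM in the WT clones and 414 and 394 in the KO-labelled clones, so that WT clone 1 lay close to both. Ifi27 was again the exception and fell, from 140.5 and 138 to 40.8 and 34.3 CPM (log2 fold change -1.89 ± 0.13, adjusted p = 0.00273).

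The KO-labelled clones resembled each other in EM, with clone 2 lower than clone 1 for 23 and higher for 24 members and a median difference of 0.00. Summed macrophage markers were 46.9 to 79.8 CPM in KO-labelled EM and 114 to 168 in WT EM, and summed lacrimal acinar markers 590.3 to 591 and 113 to 178. Of 4 acinar markers tested, 1 was called higher and 0 lower in KO-labelled EM, against 5.38% and 4.41% of all tested genes. By sign alone 2 were above and 2 below 0, with log2 fold changes from -1.89 to 4.68. The part of the macrophage and acinar markers in the result was not tested. Without the EM library of KO-labelled clone 1, 23 members rose (1.1% of tested genes did), and without that of clone 2, 21 rose (0.792%). In these fits the lone remaining clone is assumed to vary like the other groups.

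In DM fewer members passed the test between labels. Of 47 members 9 rose (2.39% of all tested genes did) and 1 fell (3.08% did), with a median log2 fold change of 0.86. The groups did not overlap for 40 members in the higher direction and 2 in the lower, against 26.3% and 26.3% of all tested genes. Iigp1 read 23.7 and 15.1 CPM in the WT clones and 194 and 221 in the KO-labelled clones (log2 fold change 3.41 ± 0.58, adjusted p = 0.0284, edgeR), Ifit2 65.7 and 94.0 and 260.5 and 408 (log2 fold change 2.07 ± 0.25, adjusted p = 0.0152) and Gbp3 78.1 and 76.97 and 291 and 324 (log2 fold change 1.99 ± 0.24, adjusted p = 0.0151). Oas1g read 10.9 and 18.96 and 39.4 and 46.9 CPM (log2 fold change 1.53 ± 0.27, adjusted p = 0.0299), Rsad2 207 and 171 and 357 and 558 (log2 fold change 1.27 ± 0.27, adjusted p = 0.0462) and Irgm2 77.2 and 62.6 and 158 and 172 (log2 fold change 1.24 ± 0.27, adjusted p = 0.0481). These 6 were picked as the largest rises called, so the position of both KO-labelled libraries above both WT libraries adds nothing to the call. Dtx3l (0.79 ± 0.14), Znfx1 (1.07 ± 0.15), a helicase that senses RNA at mitochondria, and Ifi35 (0.74 ± 0.13) were the other 3 that rose.

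Ifi27 fell in DM too, from 82.8 and 99.1 CPM in the WT clones to 26.7 and 24.7 in the KO-labelled clones (log2 fold change -1.82 ± 0.13, adjusted p = 0.00734). Oasl1 was the other member whose groups were apart in the lower direction, at 321 and 322 and 129.6 and 228 CPM, and it was not called (-0.85, adjusted p = 0.152). Isg15 and Ifit3 were higher in both KO-labelled libraries without passing the test (0.78 ± 0.40 and 0.97 ± 0.33). The count of 9 that rose depended on the fit and on single libraries. DESeq2 called 27 members higher (5.35% of tested genes), a fit with no filter on low counts 35 (3.82%) and total-count scaling 14 (2.86%). It was 25 without the EM library of WT clone 1 (1.96%) or of WT clone 2 (2.06%), 1 without the DM library of WT clone 1 (0.28%) and 4 without that of WT clone 2 (1.66%). Without the EM library of KO-labelled clone 1 (0.738%) or clone 2 (0.692%) it was 3. Without the DM library of KO-labelled clone 1 no gene of the whole table was called (0%), Ifi27 included, and without that of clone 2, 1 member rose (0.233%). Summed macrophage markers were 154 to 209 CPM in WT DM and 39.2 to 56.3 in KO-labelled DM. Their part was not tested.

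**Figure D4:**
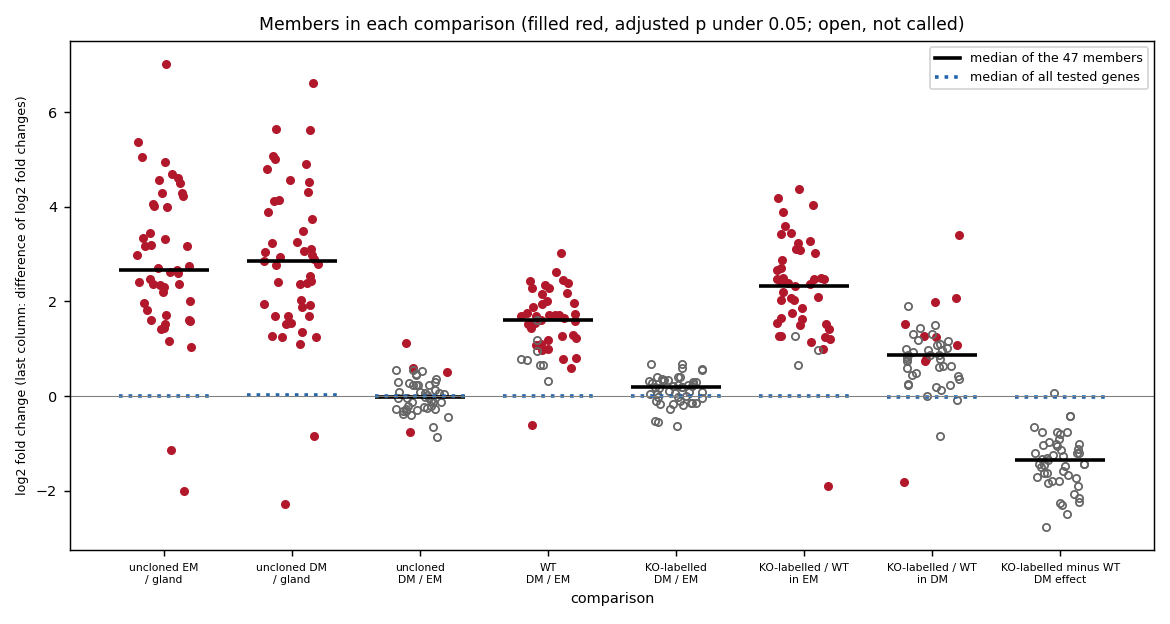
Log2 fold changes of the 47 members (dots; filled, adjusted p under 0.05; open, not called) in the 7 comparisons between groups, and, in the last column, the difference between the medium effects of KO-labelled and WT clones. Black lines are members' medians, dotted blue lines those of all tested genes; the members' medians are 2.67, 2.86, -0.02, 1.61, 0.18, 2.34, 0.86 and -1.34 from left to right.

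The rest of the pathway was read from lists of its other genes, of which up to 4 per list and comparison are named by smallest p and any others after their values were seen. Their counts are to be read against the shares of all tested genes given above for each comparison, higher and lower: 37.4% and 37.4% for uncloned EM against the gland, 38.1% and 37.4% for uncloned DM against the gland, 17.2% and 13.2% for uncloned DM against EM, 9.61% and 6.13% for WT and 4.94% and 3.41% for KO-labelled DM against EM, and 5.38% and 4.41% in EM and 2.39% and 3.08% in DM between labels. Of 10 interferon genes none had enough counts to be tested. Their summed counts were 0 to 1 per library in the gland, 2 to 5 in uncloned EM, 2 to 4 in uncloned DM, 0 to 3 in WT EM, 8 to 14 in WT DM, 8 to 12 in KO-labelled EM and 4 to 15 in KO-labelled DM. The counts in the clones came from Ifnb1, Ifnl2, Ifnl3 and Ifne, and Ifna1, Ifna2, Ifna4, Ifna5, Ifnk and Ifng were at 0 in all 8 clone libraries. Levels this low allow no comparison at this depth.

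Of the 6 receptor chains, 4 rose and 1 fell in uncloned EM against the gland, 5 rose in uncloned DM, and 4 rose in uncloned DM against EM. Against the gland most genes of the whole table were called in one direction or the other, so those counts say little about the list. Ifngr1, a chain of the receptor for type II interferon, rose by 1.01 ± 0.12 from EM to DM in uncloned organoids and by 1.07 ± 0.22 in WT clones. Ifnlr1, the specific chain of the receptor for type III interferon, rose from EM to DM in WT (1.62 ± 0.21) and in KO-labelled clones (1.72 ± 0.21). No receptor chain was called between labels in either medium.

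Among the kinases and transcription factors Irf7 and Stat2 rose in WT DM against EM and between labels in EM. Of 9, 6 rose and 2 fell in uncloned EM against the gland, 6 rose and 3 fell in uncloned DM against the gland, 3 rose in uncloned DM against EM, 5 rose in WT DM against EM, none was called in KO-labelled DM against EM, and 5 rose in KO-labelled against WT clones in EM. Irf7, the factor that amplifies type I interferon production, read 12.8, 30.8 and 15.9 CPM in the gland and 192, 200.4 and 206 in uncloned EM (log2 fold change 3.34 ± 0.43, adjusted p = 2.44e-05). In the clones it read 203 and 98.6 in WT EM, 497 and 584 in WT DM, 1261 and 1232 in KO-labelled EM and 1068 and 1323 in KO-labelled DM (log2 fold change 3.05 ± 0.34, adjusted p = 0.00623 between labels in EM). It was lowest in the 2 WT EM libraries. Stat2, which binds DNA together with Irf9, rose by 1.16 ± 0.21 from EM to DM in WT and by 1.79 ± 0.22 between labels in EM, and Irf9 rose between labels in EM (0.93 ± 0.15). Jak2, the kinase of the type II receptor, rose in uncloned DM against EM (0.81 ± 0.12), in WT DM against EM (0.84 ± 0.09) and between labels in EM (0.83 ± 0.09).

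Among 8 sensors and adaptors, the RNA sensors Ddx58 (RIG-I) and Ifih1 (MDA5) rose from EM to DM in WT clones (1.21 ± 0.16 and 1.16 ± 0.21) and were higher in KO-labelled clones in EM (1.86 ± 0.16 and 1.77 ± 0.21), where Dhx58 (LGP2) rose too (2.06 ± 0.35). Mavs, the adaptor of these sensors, ran against them and fell between labels in EM (-0.56 ± 0.10) and in DM (-0.68 ± 0.11). In all, 6 rose and 1 fell in uncloned EM against the gland, 5 and 1 in uncloned DM against the gland, 1 and 2 in uncloned DM against EM, 2 and 0 in WT DM against EM, 0 and 1 in KO-labelled DM against EM, 3 and 1 between labels in EM, and 1 and 3 between labels in DM. For uncloned DM against EM these counts are near the shares of all tested genes. The last 3 to fall were Mavs, Tmem173 (STING, -0.80 ± 0.14) and Aim2 (-2.86 ± 0.57). Of 5 feedback inhibitors, Socs1, which blocks the kinases, was the one called between labels in EM (2.08 ± 0.27), and none was called from EM to DM in any culture or between labels in DM, which for 5 genes is near the shares of all tested genes. Against the gland 4 rose and 1 (Ptpn6) fell in both media.

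Genes for presentation of antigens on MHC class I are another known target of interferon. Of 10, all 10 rose in uncloned organoids against the gland in both media, with a median log2 fold change of 2.42 in EM and 2.61 in DM. None was called from EM to DM in uncloned organoids or in KO-labelled clones, 4 rose in WT clones, 9 rose between labels in EM and 2 in DM. Their summed level was 2507 to 5013 CPM in WT EM, 5427 to 8564 in WT DM, 15902 to 16844 in KO-labelled EM and 15383 to 16935 in KO-labelled DM. The 4 groups did not overlap except for the KO-labelled pair. Psmb9, an immunoproteasome subunit (2.20 ± 0.22), Tap2, a peptide transporter (1.43 ± 0.14), and Tapbp, its link to MHC class I (0.83 ± 0.12), were among those that rose between labels in EM, and H2-D1 was the one not called (2.07, adjusted p = 0.0507). In the interaction no gene of any of these lists was called by edgeR.

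Several members cannot be read alone. Of the 50-base stretches in their exons, Ifit3 shared 51.2% with other genes and Ifit3b 45.0%, chiefly with each other, and Oas1a and Oas1g shared 57.6% and 45.7%, so the split of counts within each pair is uncertain. Igtp and Irgm2 share 162 exonic bases on the same strand in the GENCODE annotation. Parp9 and Dtx3l overlap by 458 bases on opposite strands, and 16.8% of the exonic bases of Adar overlap Chrnb2 and 16.8% of those of Ifi35 an antisense transcript. The library kit keeps the strand, but the sources used here do not say whether counting used it. Both genes of each of these 4 pairs rose in each comparison against the gland and between labels in EM.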

How the data were processed

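The 47 members and the lists beside them were chosen with earlier results of these data known. Polyadenylated RNA libraries were made with a stranded kit, per the labels' protocols, aligned to GRCm38 with STAR and counted per gene with featureCounts, per the submitters' processing notes. The sources used here give no versions, settings or annotation release. Values as deposited are raw counts of reads per gene. Symbols were matched through GENCODE M21.

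Each table was fitted alone in R 4.3.3 with edgeR 4.0.16 (filterByExpr, TMM, quasi-likelihood, a mean per group), which tested 13713 and 14282 genes with 6 and 4 residual degrees of freedom. The biological coefficient of variation was 0.138 in the table with the gland and 0.234 among the clones. A gene was called where its p, Benjamini-Hochberg adjusted over all tested genes, was under 0.05. The SE of a log2 fold change is its size over the root of the F statistic. These steps were tested on simulated data. CPM per kb divides by exonic length. Log2 CPM per culture, in DM minus EM, is the log of CPM with no count added. The deviations from group means given below use a prior count of 2.

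Alternatives were DESeq2 1.42.0, its size factors, total-count scaling, no low-count filter, only the libraries compared, each library left out, and a block on line or clone. The labels name the same line or clone in both media, on which the block rests. The correlation of deviations from group means was 0.18, 0.12 and 0.093 for the EM and DM libraries of lines 6, 7 and 8, -0.073 to 0.085 for gland and organoids of a line, and 0.60 (WT) and 0.51 (KO-labelled) for the 2 media of a clone. Between WT and KO-labelled clones of one number, which share only that number, it was -0.0031 to 0.023.

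Members with values per library are, by rule, the member of each role with the highest mean level per kilobase in the table with the gland, the 6 largest rises and 6 largest falls of each comparison among called members, and those called against its majority direction. Others are named beside counts. Values of 1 gene of the pathway lists are not reported here.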

Additional observations from a re-analysis of the deposited data

Results flagged for a closer look

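For 5 members the change from EM to DM ran in opposite directions in uncloned organoids and in WT clones. Each was lower in DM in all 3 lines and higher in DM in both WT clones. No other member was lower in all 3 lines, while 7 were higher in all 3 and in 35 the lines differed in sign. Since 45 members were higher in DM in both WT clones, nearly any member lower in all 3 lines would be opposite. The share of all tested genes with this pattern was not computed, so the 5 has no background to be read against. The log2 fold change in uncloned organoids, with that in the WT clones after it, was -0.77 and 0.79 for Rnf213, -0.86 and 0.66 for Oas2, -0.28 and 0.66 for Adar, -0.26 and 1.00 for Trim25 and -0.20 and 1.18 for Helz2. Of these, Rnf213 was called in uncloned organoids, and Trim25 and Helz2 in the WT clones (edgeR), where all 5 were called with the clone as a block. The difference itself was not tested, because the cultures are in tables normalised separately. Groups here hold 2 or 3 libraries, too few for a check of single outlying samples.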

How the results depend on the processing

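Against the gland, the 45 members that rose did so under each scaling, filter, tool and block tried, and 43 to 45 rose with one library left out, where Iigp1 and Cmpk2 were lost. Total-count scaling left no member lower (0 of 47 in EM and in DM), and gave Mov10 0.92 in EM and 1.13 in DM and Ifi27 0.0589 in EM. In uncloned DM against EM, total-count scaling gave 2 lower, no low-count filter 5 higher and 3 lower, and the line as a block 2 lower, and leaving out one library gave 1 to 9 higher and 0 to 9 lower. In WT DM against EM, the libraries compared alone gave 16 higher and 0 lower, and leaving out one library 25 to 44 higher and 0 to 1 lower. In KO-labelled DM against EM, DESeq2 gave 2 higher and 1 lower, no filter 5 and 3, the libraries compared alone 5 higher, the clone as a block 4 and 2, and leaving out one library 0 to 1 in each direction. Between labels in EM leaving out one library gave 21 to 44 higher. Between labels in DM, where clones share only a number, total-count scaling gave 14 higher, DESeq2 27 higher and 2 lower, no filter 35 higher and 2 lower, and leaving out one library 0 to 25 higher and 0 to 1 lower. For the interaction, DESeq2 gave 25 lower, no filter 42 and the clone as a block 9. Where no share of all tested genes is given above for a fit, as for the 42, its count has no background here. The block changed no other count by more than 1.5 times. Dropping the filter adds genes with few counts to the fit. Other causes were not tested. With 2 clones per label and 4 residual degrees of freedom, the count of calls among the clones moves with each library.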
